A study of Mus musculus with 20 samples.

Results

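T cell receptors of peripheral CD8 T cells from BIT mice were compared with those of β5i-KO mice, chain by chain. Both genotypes lack β5i, the catalytic subunit of the immunoproteasome, which is encoded by Psmb8. BIT mice, homozygous for an allele in which the β5t-encoding Psmb11 sequence sits in the Psmb8 locus, make β5t where β5i would otherwise be made, whereas β5i-KO mice keep β5t only where it is normally found, in cortical epithelial cells of the thymus. Because the BIT allele follows the Psmb8 locus, it is not confined to the thymus, and the comparison does not separate thymic from peripheral sites. All mice were males on the C57BL/6 background aged 9 to 12 weeks. From each mouse 1000000 TCRβ-high CD4-CD8+ T cells were sorted. The sample labels name lymph nodes, and the protocol names lymph nodes together with spleens. BIT replicates 1, 2, 4 and 5 (n = 4) and β5i-KO replicates 1 to 5 (n = 5) were used, 9 of the 20 libraries of the series. BIT replicate 3 was left out because it was very shallow. The members were the in-frame clonotypes of these 9 mice, that is 151832 of 213327 TCRα clonotypes and 204418 of 259224 TCRβ clonotypes of the series, a clonotype being a distinct combination of V gene, J gene and CDR3 nucleotide sequence within a mouse. WT mice, and β5t-KO mice, of which only the latter lack the thymic subunit, entered only the estimate of the spread and the ranges quoted for orientation.

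Each TCR chain is assembled in the thymus by joining gene segments, V to J for the α chain and V to D to J for the β chain. Nucleotides are trimmed from the segment ends, and non-templated N nucleotides are added by terminal deoxynucleotidyl transferase. The joint forms CDR3, the loop that makes most of the contact with peptide on MHC. Cortical thymic epithelial cells present peptides cut by proteasomes that contain β5t, and CD8 T cells are positively selected on them. Other antigen-presenting cells, in the medulla and the periphery, use β5i. The TRBJ genes lie in a TRBJ1 and a TRBJ2 cluster, each downstream of its own D segment, TRBD1 or TRBD2. TRBJ1 genes can be joined to TRBD1, whereas TRBJ2 genes can be joined to either.

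The clearest difference lay in the CDR3β loop, where tryptophan took a larger share of residues in every BIT mouse than in any β5i-KO mouse. The germline D segments are shown because one of them encodes this residue. Both are on chromosome 6, plus strand, of GRCm39, TRBD1 at chr6:41510135-41510146 and TRBD2 at chr6:41519097-41519110. The capitals mark the tryptophan codon, which only TRBD2 holds, in the reading frame that gives Asp-Trp-Gly-Gly.
TRBD1: gggacagggggc
TRBD2: gggacTGGgggggc
In its other reading frames TRBD2 encodes Gly-Thr-Gly-Gly and Gly-Leu-Gly-Gly. Of the CDR3β amino acid sequences that contain tryptophan, 8 were found in all 9 mice. The 5 most abundant are shown in their most abundant nucleotide version, again with the tryptophan codon in capitals, and each listed TRBD2. In the loops with Asp-Trp-Gly-Gly the marked codon matches that of germline TRBD2. In the TRBV4 and TRBJ2-1 loop it is followed by Thr-Gly-Gly, the Gly-Thr-Gly-Gly reading frame of TRBD2, so it is not the germline tryptophan codon.
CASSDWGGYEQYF (TRBV13-3, TRBJ2-7): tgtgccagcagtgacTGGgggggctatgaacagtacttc
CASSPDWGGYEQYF (TRBV14, TRBJ2-7): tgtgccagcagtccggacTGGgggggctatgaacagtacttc
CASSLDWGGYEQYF (TRBV12-2, TRBJ2-7): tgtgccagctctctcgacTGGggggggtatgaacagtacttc
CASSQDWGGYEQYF (TRBV5, TRBJ2-7): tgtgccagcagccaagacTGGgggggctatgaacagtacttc
TRBV4 and TRBJ2-1 loop: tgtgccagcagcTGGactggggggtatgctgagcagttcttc
These shared sequences themselves did not separate the groups. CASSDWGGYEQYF, for instance, ranged from 71.6 to 299 CPM (unique molecules per 1000000 in-frame TCRβ molecules) in BIT mice and from 179 to 1119 in β5i-KO mice.

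The libraries held 1983032 to 3290167 TCRα reads and 955064 to 1677522 TCRβ reads per mouse. Counted by unique molecular identifiers, these reads came from 14772 to 417504 TCRα molecules and 14988 to 146469 TCRβ molecules. In-frame clonotypes per mouse numbered 4652 to 28641 for TCRα and 5430 to 41373 for TCRβ. β5i-KO replicates 2, 4 and 5 and BIT replicate 2 were the smallest libraries of both chains, so the spread of the β5i-KO group includes 3 small libraries and that of the BIT group 1. In β5i-KO replicate 4, 53.7% of TCRα clonotypes and 69.8% of TCRβ clonotypes rested on a single molecule. TRAV11 joined to TRAJ18, the α chain of invariant NKT cells, made up at most 0.0321% of TCRα clonotypes in any of the 9 mice, and TRAV1 joined to TRAJ33, that of MAIT cells, 0.0184% to 0.0439%.

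BIT replicate 4 stood apart from the other 8 mice. TRAJ4 made up 3.92% of its TCRα clonotypes, against 1.59% to 1.87% in the other mice, and the TRAJ genes from TRAJ20 to TRAJ1 33.6%, against 26.6% to 28.5%. Tryptophan was found in 17.2% of its CDR3β sequences, a value within the range of β5t-KO mice (16.3% to 18.4%). Its TRAJ20 to TRAJ1 share lay outside theirs (22.3% to 25.1%), and so did its mean TRAJ gene number of 26.8 (29.2 to 30.2). WT mice came closer, with 28.0% to 32.4% for TRAJ20 to TRAJ1 and a mean number of 26.9 to 28.6. The CDR3α loop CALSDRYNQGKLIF, described below, reached 560 CPM in this mouse, 42792 to 60922 CPM in β5t-KO mice and 4203 to 12051 CPM in WT mice. Whether its genotype label holds was not tested. Tryptophan, cysteine, TRBJ use, TRAJ4 and the mean TRAJ number are given with and without it below.

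Residues were counted over distinct in-frame clonotypes, leaving out the outer 3 positions at each end of the loop. Of the 20 residues, 5 passed the test in CDR3β (25%), with 2 higher and 3 lower in BIT mice. Tryptophan made up 1.63%, 1.66%, 1.63%, 1.63% and 1.59% of CDR3β residues in β5i-KO replicates 1 to 5. It made up 1.78%, 1.8%, 2.23% and 1.82% in BIT replicates 1, 2, 4 and 5. The groups did not overlap, and BIT replicate 4 lay far above the other BIT mice. β5t-KO mice ranged from 2.09% to 2.40%, all above BIT replicates 1, 2 and 5, and WT mice from 1.53% to 1.81%. A high share of tryptophan was thus not particular to BIT mice in this series. The log2 difference was 0.22 with an SE of 0.05 (edgeR quasi-likelihood test, adjusted p = 0.00342). Without BIT replicate 4 it was 0.14, with an adjusted p of 3.6e-05 by edgeR, and leaving out each of the 9 mice in turn kept the call. Weighted by molecules, the groups again did not overlap, with 1.61% to 1.73% in β5i-KO and 1.79% to 2.19% in BIT mice. The log2 difference was then 0.20, and the edgeR test did not pass (adjusted p = 0.159).

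The other 4 calls were smaller or rested on fewer mice. Arginine, a basic residue, made up 6.18%, 6.27%, 6.12%, 6.12% and 6.27% of CDR3β residues in β5i-KO mice and 6.02%, 5.88%, 6.08% and 5.92% in BIT mice. Its groups did not overlap, with a log2 difference of -0.05 (SE 0.02, edgeR adjusted p = 0.0464). WT mice ranged from 5.90% to 6.15% and β5t-KO mice from 5.50% to 6.05%. Asparagine made up 5.71%, 6.03%, 5.76%, 5.52% and 5.94% in β5i-KO mice and 5.60%, 5.62%, 5.37% and 5.48% in BIT mice, with a log2 difference of -0.06 (edgeR adjusted p = 0.0464). BIT replicates 1 and 2 lay within the β5i-KO range. Lysine made up 0.547%, 0.536%, 0.556%, 0.598% and 0.458% in β5i-KO mice and 0.492%, 0.489%, 0.498% and 0.506% in BIT mice, with a log2 difference of -0.14 (edgeR adjusted p = 0.0464). The BIT mice were close to each other and lay above β5i-KO replicate 5 alone.

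Cysteine, which few CDR3 loops hold, was the remaining call. It made up 0.00449% to 0.0141% of CDR3β residues in β5i-KO mice and 0.0152%, 0.0166%, 0.0821% and 0.0129% in BIT mice, so that BIT replicate 4 decided the mean. Its log2 difference of 1.45 (edgeR adjusted p = 0.0496) was 0.42 without BIT replicate 4 (adjusted p = 0.182). Unlike tryptophan, these 4 residues each lost the call when single mice were left out. Asparagine lost it without β5i-KO replicate 1, 2, 3 or 5 or BIT replicate 5 (edgeR adjusted p = 0.0862 to 0.0964). Lysine lost it without β5i-KO replicate 1, 2, 3 or 4 or BIT replicate 1, 2 or 5 (0.0561 to 0.114), and arginine without β5i-KO replicate 1, 2, 3 or 5 or BIT replicate 2 or 5 (0.0924 to 0.117). Cysteine lost it without BIT replicate 4 or any single β5i-KO mouse (0.0561 to 0.182). Among the residues that did not pass, leucine made up 4.14% to 4.31% in β5i-KO and 4.34% to 4.48% in BIT mice without overlap (edgeR adjusted p = 0.0963). Of the 20 residues, 3 did not overlap between the groups (15%), namely tryptophan, leucine and arginine.

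**Figure D1:**
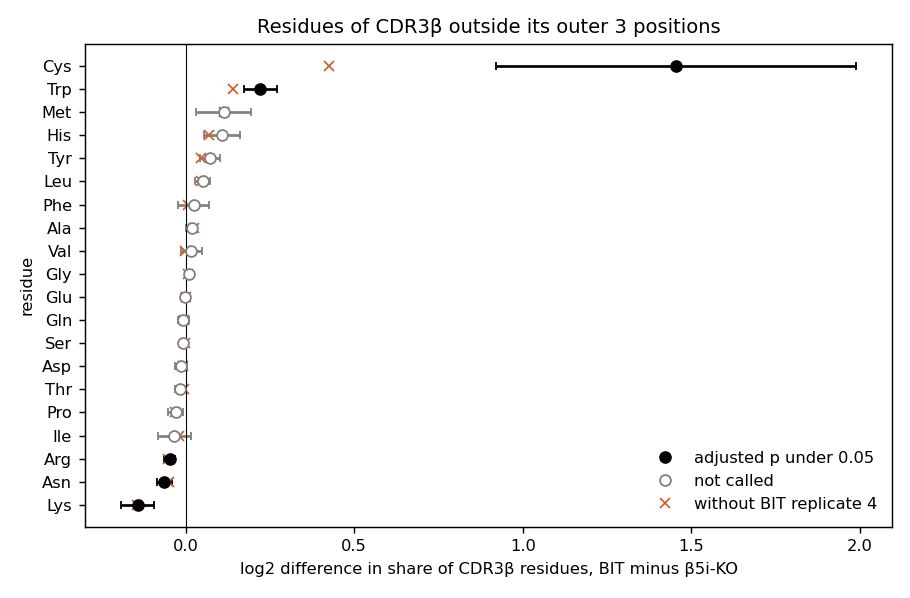
Log2 difference in the share of each CDR3β residue between BIT and β5i-KO mice (horizontal axis, BIT minus β5i-KO) for the 20 residues (vertical axis). Circles with bars are the edgeR estimate and its SE, filled where the adjusted p passed, and crosses the estimate without BIT replicate 4, which is 0.14 for tryptophan and falls from 1.45 to 0.42 for cysteine.

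Taken as groups, the 9 hydrophobic residues had a median log2 difference of 0.05 in CDR3β, beside 0.00 over all 20 residues, and 8 of the 9 lay above 0. These 9 were alanine, cysteine, phenylalanine, isoleucine, leucine, methionine, valine, tryptophan and tyrosine, so they include the called tryptophan and cysteine. Their summed share ranged from 19.5% to 20.5% in BIT mice and from 19% to 19.5% in β5i-KO mice, with β5i-KO replicate 4 reaching the lowest BIT mouse. The basic residues arginine, lysine and histidine summed to 6.87% to 7.14% in BIT mice and 7.15% to 7.26% in β5i-KO mice. The mean hydropathy of CDR3β residues on the Kyte-Doolittle scale, where larger values are more hydrophobic, averaged -1.23 in BIT mice (SD 0.0093, n = 4), against -1.25 for β5i-KO (SD 0.0149, n = 5). Tryptophan and tyrosine score as hydrophilic on this scale, although the residue group above counts them as hydrophobic. By a two-sided exact permutation test the difference of 0.0283 in mean hydropathy had p = 0.0317, or 0.151 after adjustment over the 19 single values tested in this way. None of those 19 values had an adjusted p below the threshold, and 4 had an unadjusted one below it, the smallest p that 4 against 5 mice can give being 0.0159.

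Which joins carried the tryptophan was examined after the residue test, so the following breakdown is a description without tests. Tryptophan was found in 12.7%, 12.8%, 12.7%, 12.7% and 12.4% of CDR3β clonotypes of β5i-KO mice and in 13.7%, 13.8%, 17.2% and 14.1% of those of BIT mice. WT mice lay between 12.0% and 13.9%, and the β5t-KO mice, whose range is given above, were all higher than BIT replicates 1, 2 and 5. In TRBJ2 joins, the shares were 16.8%, 17.2%, 16.5%, 16% and 16.8% in β5i-KO and 17.8%, 17.9%, 21.5% and 17.8% in BIT mice. The groups overlapped in TRBJ1 joins, with 3.41% to 4.26% in β5i-KO and 3.96% to 4.46% in BIT mice. The genotypes did not overlap within TRBJ2 joins.

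The Asp-Trp-Gly motif encoded by TRBD2 was found in 5.47%, 5.43%, 5.29%, 5.08% and 4.90% of β5i-KO clonotypes and in 5.71%, 5.72%, 7.59% and 5.68% of BIT clonotypes. Tryptophan outside this motif was found in 7.20% to 7.59% and 7.98% to 9.63%. By clonotypes both kinds were higher in every BIT mouse. By molecules the motif overlapped, with 4.87% to 5.87% in β5i-KO and 5.85% to 7.45% in BIT mice, whereas tryptophan outside it did not. The tryptophan codon lay within the assigned D segment in 10.8% to 10.9% of β5i-KO clonotypes and in 11.7% to 15% of BIT clonotypes. It lay in the V segment in 0.0530% to 0.0921% and 0.0926% to 0.144%, also without overlap, but by molecules the shares in the V segment overlapped. In the J segment or in no segment the groups overlapped by clonotypes and by molecules.

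The use of TRBD2 itself separated the groups by molecules but not by clonotypes. Of the TRBJ2 joins with a D segment, TRBD2 was listed in 56.2% to 57.2% in β5i-KO mice and in 57.1%, 58.1%, 62.9% and 58.2% in BIT mice, with BIT replicate 1 inside the β5i-KO range. By molecules these shares were 56.6% to 57.0% and 57.2% to 62.2%, without overlap. Among TRBJ1 joins, MiXCR listed TRBD2 in 8.19% to 9.34% over the 9 mice, although TRBD2 lies downstream of the TRBJ1 genes, so a D call on a short stretch can be wrong. Among TRBJ2 joins with TRBD2, tryptophan was found in 29.7% to 33.4% of clonotypes in β5i-KO mice and in 32.6% to 37.4% in BIT mice, ranges that overlapped. In TRBJ2 joins with TRBD1 the shares were 4.02% to 5.02% and 4.87% to 5.69%, which overlapped by clonotypes but not by molecules (4.05% to 4.89% and 5.06% to 5.64%). In TRBJ2 joins with no D segment they were 3.42% to 5.08% and 5.16% to 5.84%, without overlap by clonotypes, but they overlapped by molecules. A D segment was assigned to 74.3% to 76.0% of clonotypes, and of these 16.7% to 19.4% listed more than 1 D segment and were counted under the first.

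The V genes were then taken one at a time, for the 16 TRBV genes with at least 100 clonotypes in each of the 9 mice. The mean share of clonotypes with tryptophan was higher in BIT mice for all 16 of them, and for 15 of 16 when BIT replicate 4 was left out. In 3 genes (18.8%) every BIT mouse was above every β5i-KO mouse, and in none was every BIT mouse below. TRBV2 clonotypes had tryptophan in 16.9%, 15.6%, 16%, 16.6% and 13% in β5i-KO mice and 19.6%, 19.3%, 23.0% and 21.5% in BIT mice. TRBV13-2 clonotypes had it in 11.7%, 10.6%, 13%, 10.6% and 11.5% in β5i-KO mice and 15.1%, 13.9%, 15.3% and 14.1% in BIT mice. TRBV19 clonotypes had it in 9.75%, 7.39%, 10.2%, 8.06% and 9.57% in β5i-KO mice and 11.6%, 12.1%, 14% and 11.6% in BIT mice. Tryptophan became more frequent with loop length in both genotypes, from 5.80% to 8.36% of loops of 12 residues to 16.6% to 26.7% of loops of 16 residues, and at each length from 12 to 16 residues the groups overlapped.

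**Figure D2:**
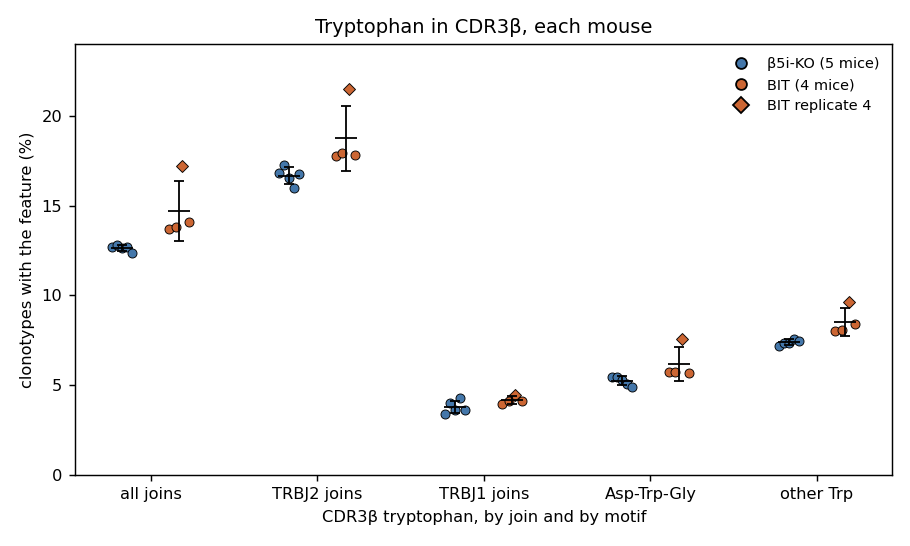
Share of CDR3β clonotypes with tryptophan in each mouse (vertical axis, percent; points are mice, by genotype), for all clonotypes, by TRBJ cluster, and inside or outside the Asp-Trp-Gly motif (horizontal axis). BIT replicate 4 is the highest point in each column, and only the TRBJ1 joins overlap between the genotypes.

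Arginine, asparagine, lysine and leucine were also described within each TRBJ cluster. Arginine and leucine, which did not overlap over all joins, overlapped between the genotypes within TRBJ1 joins and within TRBJ2 joins. Asparagine and lysine overlapped in each cluster as they did over all joins. Asparagine, which the germline of TRBJ1-1 and TRBJ1-2 encodes near the start of the segment, made up 10.3% to 10.6% of residues in TRBJ1 joins and 3.63% to 3.95% in TRBJ2 joins over the 9 mice. Arginine made up 7.98% to 8.48% and 4.95% to 5.41%.

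Among the 12 TRBJ genes, 3 were used less in BIT mice (25%), all of the TRBJ1 cluster. TRBJ1-1 made up 10.8%, 11.8%, 10.3%, 9.90% and 12.0% of TCRβ clonotypes in β5i-KO mice and 10.1%, 10.6%, 8.58% and 9.50% in BIT mice, with a log2 difference of -0.16 (SE 0.05, edgeR adjusted p = 0.0447). TRBJ1-2 made up 6.05%, 6.45%, 6%, 5.80% and 5.74% in β5i-KO mice and 5.88%, 5.81%, 4.59% and 5.13% in BIT mice, with a log2 difference of -0.17 (edgeR adjusted p = 0.0447). TRBJ1-4 made up 6.02%, 6.89%, 5.83%, 5.37% and 6.84% in β5i-KO mice and 5.66%, 5.83%, 5.00% and 5.32% in BIT mice, with a log2 difference of -0.16 (edgeR adjusted p = 0.0447). For all 3 genes the groups overlapped, and BIT replicates 4 and 5 were the lowest of the 9 mice.

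All 6 TRBJ1 genes had log2 differences below 0 and all 6 TRBJ2 genes above 0. The medians were -0.14 for TRBJ1 and 0.06 for TRBJ2, beside -0.03 over the 12 genes. Because shares sum to the whole, a lower TRBJ1 share and a higher TRBJ2 share are one difference. Without BIT replicate 4, TRBJ1-1 had a log2 difference of -0.11, TRBJ1-2 of -0.10 and TRBJ1-4 of -0.12, and none passed (edgeR adjusted p = 0.262 for each). None of the 12 genes was called when β5i-KO replicate 1, 2 or 5 or BIT replicate 4 or 5 was left out, and 5 were called without β5i-KO replicate 4. None was called with DESeq2 either, which gave 4 genes an unadjusted p below the threshold. The share of TRBJ2 in all clonotypes was 69.1%, 66.4%, 69.9%, 71.9% and 66.5% in β5i-KO mice and 70.5%, 70.0%, 75.0% and 72.6% in BIT mice. The groups overlapped (two-sided exact permutation test, p = 0.0794, adjusted p = 0.215). WT mice lay between 70.1% and 73.9% and β5t-KO mice between 71.2% and 73.7%, both within the range of BIT mice.

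**Figure D3:**
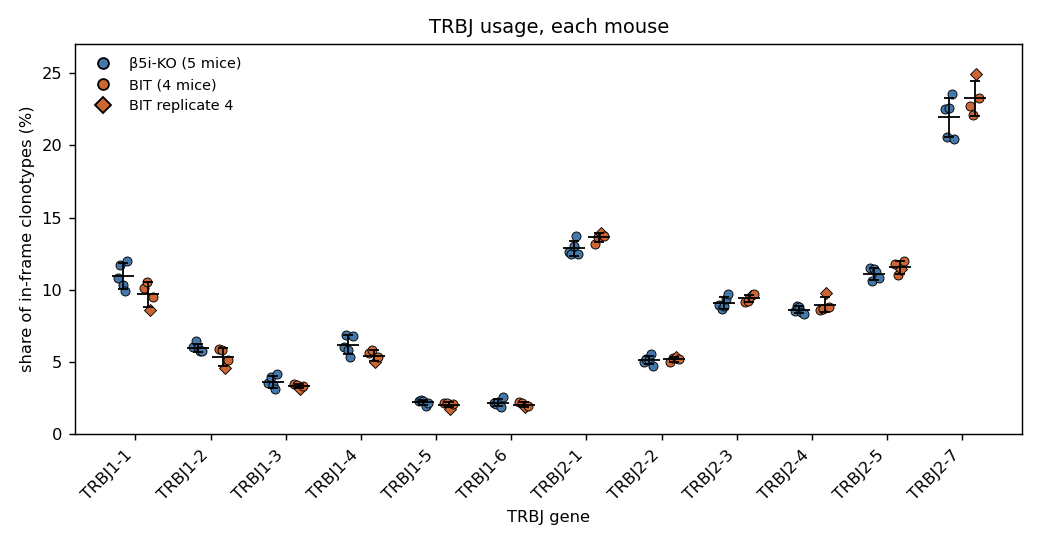
Share of in-frame TCRβ clonotypes that used each TRBJ gene (vertical axis, percent) in each mouse (points, by genotype), along the 12 TRBJ genes (horizontal axis). BIT mice tend to lie lower in the 6 TRBJ1 genes and higher in the 6 TRBJ2 genes, with overlap in each.

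No TRBV gene was called. Of 23 genes tested, 0 passed (0%) with edgeR, 0 had an unadjusted p below the threshold, and DESeq2 called 0. TRBV16, TRBV13-2 and TRBV13-3, the most used, made up 10.2% to 16.5%, 9.80% to 11.6% and 9.57% to 12.0% of clonotypes over the 9 mice, and their log2 differences were 0.08, -0.06 and -0.00. TRBV12-1 ranged from 1.06% to 5.43% in β5i-KO mice and from 2.94% to 5.14% in BIT mice. This gene, TRBV12-2 and TRBV13-1 were all lowest in β5i-KO replicate 4. TRBV31, the gene downstream of the D and J segments that joins by inversion, made up 2.23% to 2.86% in β5i-KO and 2.71% to 2.88% in BIT mice (log2 difference 0.16, edgeR adjusted p = 0.998).

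Of 248 TRBV and TRBJ pairs, edgeR called 0 (0%), 5 had an unadjusted p below the threshold, and DESeq2 called 0. The Jensen-Shannon distance between V-J pair profiles of mice of different genotypes was 0.177 for the β chain, beside 0.178 between mice of the same genotype (exact permutation adjusted p = 0.984). The pair TRBV23 with TRBJ2-2 made up 0.0521%, 0.0368%, 0.0556%, 0.0297% and 0.0530% of clonotypes in β5i-KO mice and 0.0833%, 0.115%, 0.138% and 0.0702% in BIT mice. These did not overlap, like 5 pairs in all (2.02%), and the pair did not pass (edgeR adjusted p = 0.996).

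N nucleotides in the β chain separated the groups by a small margin that did not pass. Their mean number per in-frame clonotype, counted outside the assigned D segment, was 3.05, 3.02, 3.04, 2.99 and 3.02 in β5i-KO mice and 2.97, 2.91, 2.97 and 2.99 in BIT mice. BIT replicate 5 and β5i-KO replicate 4 were almost equal, and the groups did not overlap. The difference of -0.0648 nucleotides was small (two-sided exact permutation test, p = 0.0159, adjusted p = 0.151). Clonotypes with no N nucleotide made up 14.4%, 15.1%, 14.7%, 14.7% and 15.1% in β5i-KO mice and 15.7%, 16.5%, 15.5% and 15.1% in BIT mice (exact permutation p = 0.0317, adjusted p = 0.151). When the D segment was included in the insert, the difference changed sign to 0.026 nucleotides. In out-of-frame β rearrangements, which make no protein, the groups overlapped, with 3.30 to 3.51 N nucleotides in β5i-KO and 3.31 to 3.53 in BIT mice.

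CDR3β length did not separate the genotypes. Mean length was 13.9 residues in both genotypes (SD 0.0386 for BIT, n = 4, and 0.0233 for β5i-KO, n = 5), and the difference of -0.00699 residues had an exact permutation adjusted p of 0.816. Of 14 length classes, edgeR called 0 (0%), none had an unadjusted p below the threshold, and DESeq2 called 0. Loops of 15 residues, a common class, made up 21.1% to 21.9% of clonotypes in β5i-KO mice and 20.6% to 21.8% in BIT mice.

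In the α chain, none of the 93 TRAV genes was called (0%). With edgeR 4 (4.3%) had an unadjusted p below the threshold, 2 (2.15%) did not overlap between the groups, and DESeq2 called 0. TRAV12-1, the most used, made up 13.9%, 19.2%, 13%, 15.1% and 18.3% of clonotypes in β5i-KO mice and 12.6%, 13.7%, 14.7% and 13.6% in BIT mice. β5i-KO replicates 2 and 5, which had the fewest TCRα clonotypes, were the highest, and the remaining mice overlapped. Its log2 difference was -0.21 (SE 0.10, edgeR adjusted p = 0.76). TRAV14 genes summed to 11.2% to 13.4% in β5i-KO and 11.1% to 12.2% in BIT mice. Of the TRAV14 genes, TRAV14-1 made up 1.29% to 1.54% and 1.36% to 1.45%. Between 33.2% and 39.0% of TCRα clonotypes listed several V genes, mostly near-identical copies of a subgroup, so V usage was also tested by subgroup. Of 21 subgroups, edgeR called 0 (0%), 0 had an unadjusted p below the threshold and DESeq2 called 0. TRAV12 made up 23.3% to 29.1% in β5i-KO mice and 23.4% to 24.7% in BIT mice. The 5 TRAV15 genes all lay above 0, with a median log2 difference of 0.35 beside 0.02 over all TRAV genes, but the TRAV15 subgroup did not pass (edgeR adjusted p = 0.455).

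TRAJ genes also gave no call, 0 of 43 (0%), with 5 at an unadjusted p below the threshold by edgeR and 5 by DESeq2, which called 0. TRAJ23, the only TRAJ gene of which the groups did not overlap (2.33%), made up 4.66%, 5.00%, 4.67%, 4.71% and 5.16% in β5i-KO mice and 4.25%, 4.39%, 4.31% and 4.38% in BIT mice. Every BIT mouse was lower than every β5i-KO mouse. The log2 difference was -0.15 (SE 0.05, edgeR adjusted p = 0.269), and -0.14 without BIT replicate 4 (adjusted p = 0.221). TRAJ31 made up 4.16% to 4.82% in β5i-KO and 3.66% to 4.26% in BIT mice, with a log2 difference of -0.16 (edgeR adjusted p = 0.269). TRAJ4 had a log2 difference of 0.40 (edgeR adjusted p = 0.38), which was -0.00 without BIT replicate 4.

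TRAJ genes are used in the order of the locus, since repeated rearrangement of the α locus moves from the TRAV-proximal TRAJ genes towards the constant region. The mean TRAJ gene number, which falls as joins move towards the constant region, was 28.5, 28.1, 28.5, 28.5 and 28.4 in β5i-KO mice and 29.0, 28.8, 26.8 and 28.9 in BIT mice. BIT replicates 1, 2 and 5 lay above and BIT replicate 4 below all β5i-KO mice, which left a difference of -0.0267 (exact permutation adjusted p = 0.955). Without BIT replicate 4 the difference was 0.516 (exact permutation adjusted p = 0.17). The correlation across clonotypes between the positions of TRAV and TRAJ was 0.383 to 0.409 in β5i-KO mice and 0.405 to 0.418 in BIT mice.

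**Figure D4:**
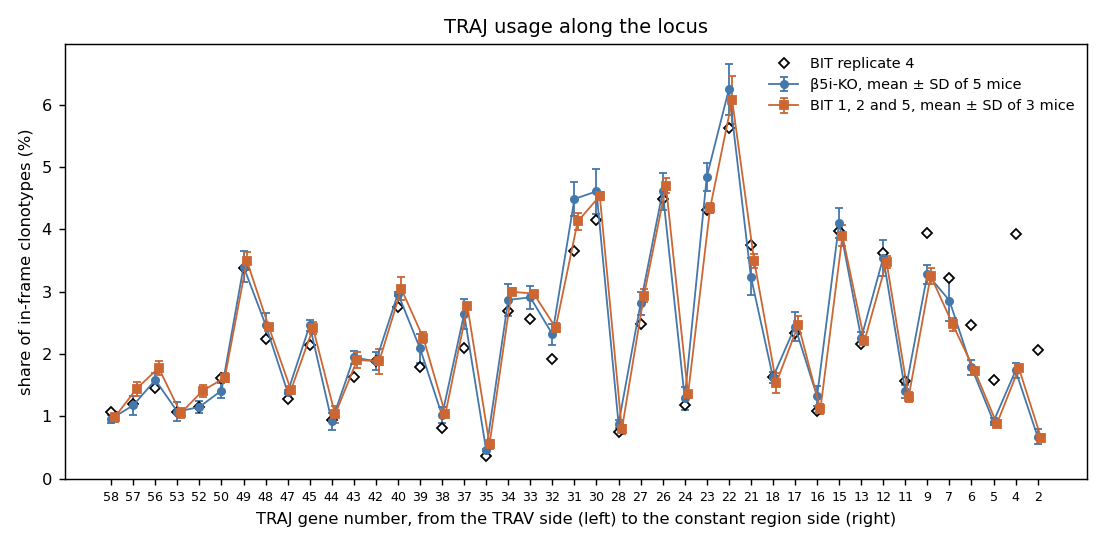
Share of in-frame TCRα clonotypes that used each TRAJ gene (vertical axis, percent), ordered by gene number from the TRAV side to the constant region (horizontal axis). Lines join the means ± SD of the 5 β5i-KO mice and of BIT replicates 1, 2 and 5, and diamonds are BIT replicate 4, which reaches 3.92% at TRAJ4.

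Of 594 pairs of TRAV subgroup and TRAJ gene, edgeR called 0 (0%), 28 had an unadjusted p below the threshold, and DESeq2 called 0. The pair with the smallest p was TRAV14 with TRAJ28, which made up 0.128%, 0.110%, 0.104%, 0.205% and 0.236% of clonotypes in β5i-KO mice and 0.0768%, 0.0305%, 0.0709% and 0.0524% in BIT mice (log2 difference -1.13, edgeR adjusted p = 0.0724). TRAV12 with TRAJ23 made up 1.35%, 2.10%, 1.36%, 1.49% and 1.85% in β5i-KO mice and 1.08%, 1.18%, 1.24% and 1.21% in BIT mice (log2 difference -0.40, edgeR adjusted p = 0.127). Neither pair overlapped between the genotypes, like 10 pairs in all (1.68%), 6 of them higher in BIT mice (1.01%), and neither passed. The distance between V-J profiles was 0.265 between genotypes and 0.261 within them (exact permutation adjusted p = 0.369).

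CDR3α length and residues showed small shifts that did not pass. Of 14 length classes, edgeR called 0 (0%), with 1 at an unadjusted p below the threshold, and DESeq2 called 0. That class was the short loops of 8 residues, which made up 0.0964%, 0.0736%, 0.0779%, 0.0731% and 0.0430% of clonotypes in β5i-KO mice and 0.126%, 0.112%, 0.106% and 0.161% in BIT mice (log2 difference 0.67, edgeR adjusted p = 0.132). The groups did not overlap. Mean CDR3α length was 13.6 residues in both genotypes, with a difference of 0.0174 (exact permutation adjusted p = 0.811). Of the 20 residues, edgeR called 0 (0%), 2 had an unadjusted p below the threshold, and DESeq2 called 0. Arginine made up 5.45%, 5.41%, 5.27%, 5.40% and 5.17% in β5i-KO mice and 5.17%, 4.98%, 5.12% and 5.20% in BIT mice (log2 difference -0.06, edgeR adjusted p = 0.0533), so that it was lower on average in both chains of BIT mice. Tryptophan, called in the β chain, was not among the α residues with the smallest p. Mean CDR3α hydropathy averaged -1.46 in BIT mice (SD 0.0233, n = 4), against -1.49 for β5i-KO (SD 0.0105, n = 5), without overlap (exact permutation p = 0.0159, adjusted p = 0.151). BIT replicate 2, at -1.4825, and β5i-KO replicate 3, at -1.4829, were almost equal. The difference of 0.0307 in mean CDR3α hydropathy was 0.0196 without BIT replicate 4. N nucleotides numbered 2.43, 2.20, 2.42, 2.24 and 2.21 per α clonotype in β5i-KO mice and 2.42, 2.28, 2.36 and 2.40 in BIT mice, which overlapped.

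The abundance of single CDR3 sequences was measured in CPM of unique molecules, so that more cells of a clone and more RNA per cell cannot be told apart. Of 5714 recurring CDR3α sequences, 1 was called (0.0175%), lower in BIT mice, while 634 (11.1%) had an unadjusted p below the threshold. It was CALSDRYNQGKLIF, made mostly by TRAV12-1 and TRAJ23, the pair described above. Its most abundant nucleotide version, in 7 of the 9 mice, is shown with the bases that come from neither the V nor the J segment in capitals. The most abundant version of CALSDLYSNNRLTL, made by TRAV12-1 and TRAJ7, is shown beside it because it had no such base.
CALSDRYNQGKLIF: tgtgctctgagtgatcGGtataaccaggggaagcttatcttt
CALSDLYSNNRLTL: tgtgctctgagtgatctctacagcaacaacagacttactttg
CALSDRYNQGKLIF gave 172, 483, 200, 25 and 154 molecules in β5i-KO mice, which corresponds to 896, 3286, 742, 1849 and 1490 CPM. It gave 68, 26, 88 and 34 molecules in BIT mice, or 177, 339, 560 and 155 CPM. All BIT mice were below all β5i-KO mice, with a log2 difference of -2.42 (SE 0.39, edgeR adjusted p = 2.71e-06). WT mice lay above both groups, at 4203 to 12051 CPM. It was not called by DESeq2 or with TMM normalisation.

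The same loop was written by 15 nucleotide versions over the 9 mice. β5i-KO mice held 9, 5, 9, 6 and 4 of them and BIT mice 7, 2, 6 and 5, so that each mouse of either genotype held more than 1. The most abundant version accounted for 35.5% of the molecules of the loop.

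CALSDLYSNNRLTL gave 197, 349, 183, 20 and 247 molecules in β5i-KO mice and 6, 0, 10 and 26 in BIT mice. The groups did not overlap in CPM (679 to 2390 in β5i-KO and 0 to 119 in BIT mice), and it did not pass (log2 difference -4.97, edgeR adjusted p = 0.176). WT mice ranged from 126 to 928 CPM. Another TRAV12-1 and TRAJ23 loop, of 15 residues, gave 30, 25, 1, 1 and 101 molecules in β5i-KO mice and 0 in every BIT mouse. It also gave 0 molecules in WT and β5t-KO mice. It thus met the abundance rule for testing only through β5i-KO mice, so its absence in BIT mice is a description only. With molecules pooled over each group and a floor of 3 molecules over the BIT group, the pooled levels differed by at least 60.7-fold (edgeR adjusted p = 0.176). This bound depends on the same choice of loop. The bound was 25.5-fold without β5i-KO replicate 5, which gave 101 of the 158 molecules, 32.9-fold without BIT replicate 1 and 96.0-fold without β5i-KO replicate 3. A TRAV12-1 and TRAJ15 loop of 15 residues gave the opposite pattern, 5, 0, 7 and 5 molecules in BIT mice and none in β5i-KO mice, and did not pass either (edgeR adjusted p = 0.176). With the same floor over the β5i-KO group its bound was 4.92-fold, or 3.09-fold without β5i-KO replicate 3. In β5t-KO mice this loop ranged from 1482 to 5517 CPM.

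The most abundant α loops overlapped between the genotypes. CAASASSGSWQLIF, made with 12 V genes and led by TRAV14N-3 with TRAJ22, ranged from 6979 to 9241 CPM in β5i-KO and from 7684 to 8191 in BIT mice (log2 difference -0.01, edgeR adjusted p = 1). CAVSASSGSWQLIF, made with 17 V genes and led by TRAV3D-3 with TRAJ22, ranged from 1694 to 3282 and from 2552 to 3882. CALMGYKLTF, of TRAV12-1 and TRAJ9, ranged from 1602 to 2400 and from 1094 to 2977. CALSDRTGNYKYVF, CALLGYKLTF, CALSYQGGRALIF and a loop of 15 residues led by TRAV12-1 with TRAJ30 overlapped as well (edgeR adjusted p = 1 for each).

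**Figure D5:**
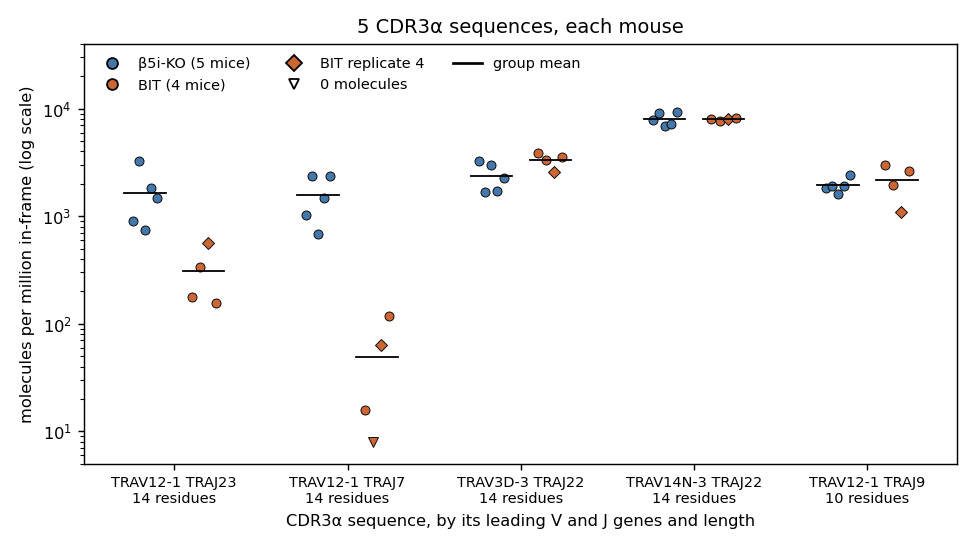
Abundance in CPM of in-frame TCRα molecules (vertical axis, log scale) of 5 CDR3α loops in each mouse (points, by genotype, with bars at group means, diamonds for BIT replicate 4 and triangles for 0 molecules), named by their leading V and J genes and length (horizontal axis). The TRAV12-1 and TRAJ23 loop, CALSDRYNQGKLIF, separates the genotypes at 155 to 560 in BIT and 742 to 3286 in β5i-KO mice, whereas the TRAJ22 loops overlap.

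Of 3287 recurring CDR3β sequences edgeR called 0 (0%), DESeq2 called 0, and 548 had an unadjusted p below the threshold by edgeR and 14 by DESeq2. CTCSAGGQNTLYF, of TRBV1 and TRBJ2-4, gave 3, 11, 1 and 10 molecules in BIT mice and none in β5i-KO mice (edgeR adjusted p = 0.105). WT and β5t-KO mice gave none either, so this loop met the abundance rule only through BIT mice and its pattern is a description only. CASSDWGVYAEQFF, which contains Asp-Trp-Gly, gave 6, 0, 3, 0 and 24 molecules in β5i-KO mice and none in BIT mice, the direction opposite to that of tryptophan loops as a whole (edgeR adjusted p = 0.105). The 3 most abundant β loops each had TRBJ2-7 in their leading V-J pair, were made with 2, 14 and 15 V genes, and overlapped between the genotypes. Of these, a loop of 14 residues led by TRBV12-1 ranged from 464 to 831 CPM in β5i-KO and from 466 to 999 in BIT mice.

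Sharing of clonotypes between mice was described after thinning each library to the same number of molecules. Of TCRα clonotypes, a median of 6.04% was shared within pairs of BIT mice, 6.51% within pairs of β5i-KO mice and 6.16% across genotypes. For TCRβ the medians were 0.872%, 0.748% and 0.842%. Pairs across genotypes thus lay between pairs within them. Over the 9 mice, 336 of 71230 CDR3α loops and 54 of 143670 CDR3β loops were found in every mouse.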

How the data were processed

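TCR α and β transcripts of sorted CD8 T cells were amplified with a kit that tags molecules with unique identifiers, and the authors assembled clones with MiXCR, whose version and settings are not given in the sources used here. The deposited tables hold, per mouse and chain, each clone's whole-number count of reads and of unique molecules, not normalised, with its V, D and J calls and CDR3. The labels list mm10, but no table gives coordinates, and positions were taken from the GENCODE vM39 annotation of GRCm39. The deposited clone fractions were not used.

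Clones in frame and free of stop codons were used, and each V gene, J gene and CDR3 nucleotide sequence was counted once per mouse. A clone listing several genes was assigned to the first. Classes were tested where 4 or more libraries held 5 or more clonotypes, and CDR3 sequences where 3 or more libraries of a group reached 10 CPM. Counts were tested with edgeR 4.0.16 in R 4.3.3 (quasi-likelihood test, library size normalisation) in one fit of 17 libraries, with WT and β5t-KO mice sharing the estimate of spread, the contrast BIT minus β5i-KO, and Benjamini-Hochberg adjustment over each table at 0.05. DESeq2 1.42.0 was an alternative. The 19 single values were compared by two-sided exact permutation of the mice in SciPy 1.17.1. Figures were drawn with Matplotlib 3.10.9. The fit was first tested on simulated data.

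The text names, per table, at most 10 called features, those with the highest shares and those with the smallest p up to 5, with TRAV14, TRBV12-1, the TRBV13 genes and 5 CDR3α sequences. Leucine, TRAJ2, TRBV19 and the breakdown of tryptophan were picked once their values were known. The members and lists were chosen with earlier results of these data known. Mice are separate animals by the labels. Alternatives were TMM, DESeq2, molecules in place of clonotypes, thinning to the shallowest library, at least 2 molecules per clone, only the 9 libraries, all 5 BIT libraries, single-V clones, nucleotide clonotypes, a replicate block and each mouse left out. Reads are amplified copies, so floors used molecules and cover counting error only.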

Additional observations from a re-analysis of the deposited data

Results flagged for a closer look

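Of 208 groups of 4 or 5 mice checked, 26 held a mouse that lay far from the others of its genotype by Dixon's ratio, where chance gives about 1 in 20, and 11 of the 26 were BIT replicate 4. In that mouse TRAJ4 made up 3.92% of TCRα clonotypes, TRAV16N 2.75%, the pair of TRAV7 and TRAJ2 0.380%, and the mean TRAJ number was 26.8. Cysteine near the apex of the loop was found in 0.572% of its CDR3α and 0.483% of its CDR3β sequences. Among its residues, phenylalanine took 1.01% and cysteine 0.122% in CDR3α, and tryptophan 2.23% and cysteine 0.0821% in CDR3β, and CDR3β loops of 17 residues made up 2.87%. What sets this mouse apart was not tested.

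Other BIT mice stood out in 4 values. Mean CDR3α length was 13.562 residues in BIT replicate 2, TRAV15-2-DV6-2 made up 0.248% in BIT replicate 1, CDR3β loops of 8 residues 0.0415% in BIT replicate 5, and a TRBV12-1-led TRBJ2-7 loop of 14 residues reached 999 CPM in BIT replicate 1.

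Among β5i-KO mice, replicate 2 had a mean TRAJ number of 28.1, TRBV23 at 1.8%, TRBV31 with TRBJ2-3 at 0.111%, CDR3α loops of 13 residues at 23.1% and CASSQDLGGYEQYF at 683 CPM. Replicate 5 had hydrophobic residues at both positions 6 and 7 in 3.23% of CDR3β loops, a TRAV12-1 and TRAJ23 loop of 15 residues at 977 CPM, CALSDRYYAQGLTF at 523 CPM and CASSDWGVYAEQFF at 716 CPM. TRBV21 made up 0.0347% in replicate 1 and TRBV13-3 12.0% in replicate 4.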

How the results depend on the processing

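Tryptophan in CDR3β kept its direction under every alternative run and lost its call only by molecules. The other calls were less stable, and the cause was not tested. The 3 TRBJ calls became 0 with TMM, DESeq2, molecules, clones of at least 2 molecules, only the 9 libraries or all 5 BIT libraries, and 1 after thinning. The 5 CDR3β residue calls became 1 with TMM, DESeq2, thinning or all 5 BIT libraries, 2 with clones of at least 2 molecules or only the 9 libraries, and 0 by molecules. TRAJ gave 1 call after thinning, and CDR3α residues 1 with TMM and 1 with all 5 BIT libraries. The 1 CDR3α sequence call, of 5714 tested, became 0 of 5714 with TMM and 4 of 5714 with DESeq2 (all higher in BIT mice). It became 6 of 5705 with only the 9 libraries (1 higher and 5 lower), and 0 of 1858 by nucleotide clonotypes. CDR3β gave 41 calls by nucleotide clonotypes, of 251 tested, 28 higher and 13 lower in BIT mice. The main test of CDR3β loops had 0 calls of 3287. With each mouse left out in turn, calls ranged from 0 to 5 for TRBJ, 0 to 2 for TRAV and TRAJ pairs, 0 to 1 for CDR3α residues and 1 to 5 for CDR3β residues.

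Some differences near 0 changed sign. By single-V clones TRAV12 gave a log2 difference of 0.0077, and thinning gave 0.0062 for CDR3α loops of 16 residues. Weighted by molecules, mean CDR3α length gave -0.0154, α clonotypes without N nucleotides 0.048, the β V-J profile distance 0.000377 and out-of-frame β N nucleotides -0.014, the last -0.0967 after thinning. With D included, β N nucleotides gave 0.026. With all 5 BIT libraries, mean CDR3β length gave 0.00264, α clonotypes without N nucleotides 0.115, mean TRAJ number 0.215, and out-of-frame N nucleotides -0.048 for α and -0.0311 for β. With each mouse left out, TRAJ4 ranged from -0.0039 to 0.52, CDR3α loops of 16 residues from -0.0496 to 0.0126, mean CDR3β length from -0.0204 to 0.00912, cysteine near the α apex from -0.0203 to 0.15, mean TRAJ number from -0.244 (without BIT replicate 1) to 0.516 (without BIT replicate 4), the β profile distance from -0.0051 to 0.00187 and out-of-frame β N nucleotides from -0.0073 to 0.0658.

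The rule for pairing mice by replicate number was not met. In 0 of 11 tables were all 4 correlations of same-numbered BIT and β5i-KO mice above the limit (from -0.959 to 0.877). For TRBV genes they were 0.868, 0.0991, 0.462 and 0.397. Among the fitted libraries, replicate 4 had the highest TRBV16 share of each genotype (β5t-KO 18.2%, β5i-KO 16.5%, BIT 14.8%, WT 16.6%). TRBV12-1 was lowest in replicate 4 of β5t-KO, β5i-KO and WT mice (1.07%, 1.06% and 1.60%), but in replicate 5 of BIT mice. Whether same-numbered mice share a batch was not tested. With the replicate number as a block, TRBJ gave 5 calls, TRAJ 1 and TRAV and TRAJ pairs 3. Small libraries limit what can be seen of rare sequences.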
